A study of Homo sapiens with 6 samples.

Results

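The endoplasmic reticulum (ER) folding and quality control genes described here are 47 genes chosen by name from textbook knowledge: 4 stress sensors and their transcription factor, 13 chaperones, 8 enzymes of disulfide formation, 11 genes of ER-associated degradation and 11 genes of the translocon and signal peptidase. They were measured in LNCaP cells, an established androgen-responsive line from a prostate cancer metastasis. All 6 cultures spent 3 days in phenol red-free medium with 10% charcoal/dextran-stripped serum, which removes steroids. Thereafter 3 cultures were given the androgen dihydrotestosterone (DHT) at 100 nM for 48 h, and 3 cultures served as controls, of which the sources used here name no vehicle. Every culture is of the same single line and gave 1 Affymetrix array. Each gene's value is that of the brightest tested probe set annotated to no other gene, with the less specific _x_at type taken only in the absence of another type. Of the 47 genes, 43 were tested among 14269 genes in all, since all 43 with such a probe set passed the filter on dim signals. PDIA5, TXNDC5 and SYVN1 have only probe sets that name several genes, and SEC61G was not analysed here.

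Proteins destined for secretion or membranes enter the ER through the SEC61 channel and are folded there by chaperones and by disulfide isomerases. Proteins that fail to fold are returned to the cytosol and degraded. When unfolded proteins accumulate, the sensors IRE1 (gene ERN1), PERK (EIF2AK3) and ATF6 start the unfolded protein response, which slows translation and raises the transcription of chaperones and degradation factors. Prostate luminal cells secrete large amounts of protein, and androgen drives much of that secretion.

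Every array has the same trimmed mean signal, 100.03, so that every change is relative to the average transcript. KLK3, the secreted protease known as prostate-specific antigen and a textbook androgen target, lay at signals of 1894 to 2398 in the controls and 8501 to 9364 with DHT, with no overlap. The luminal markers KRT8, KRT18, EPCAM, HOXB13 and FOLH1 all gave signals above 404 on every array, but KRT8 (-0.43) and HOXB13 (-0.37) fell with DHT (limma adjusted p = 0.00569 and 0.0210), and KRT18 had 0.23 with all DHT arrays above the controls. Basal KRT5 and KRT14 stayed at or below 23.2 and leukocyte PTPRC and CD14 at or below 21.0. The leukocyte marker CD3E read 34.2, 38.0 and 29.3 in the controls and 9.95, 22.2 and 11.1 with DHT. The summed signal of 5 stromal markers was 311 to 322 in the controls and 216 to 270 with DHT. Of these 5 only COL1A1 passed, at 223, 178 and 193 against 129, 112 and 154 (-0.54, limma adjusted p = 0.0184). The sum of 3 leukocyte markers was 32.2 to 60.9 and 13.6 to 37.5, and that of 3 endothelial markers 191 to 204 and 200 to 262. That of the 2 basal markers with a probe set, both below the limit on dim signals, was 6.23 to 21.73 and 21.74 to 30.7, so that the groups nearly touched. For ACTB, the signal near the 3' end over that near the 5' end, a sign of RNA integrity and labelling, was 1.33 to 1.42 in the controls and 1.72 to 1.85 with DHT, and that of GAPDH 0.854 to 0.935 and 1.01 to 1.11 (two-sided exact permutation p = 0.1 each, the smallest that 3 against 3 arrays allow). These ratios, KRT8, KRT18, HOXB13, CD3E and the stromal and basal sums did not overlap between the groups, and their part in the changes below was not tested.

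DHT was followed by modest rises in some genes of each group, while most members did not pass. In the disulfide group this was P4HB alone, whose other probe sets had values below 0. Of the 43 genes tested, 12 rose and 1 fell at an adjusted p of 0.05 (limma on log2(signal + 16), Benjamini-Hochberg over all genes). The share that rose was 27.9%, against 6.97% of all genes tested, and the share that fell was 2.33%, against 5.99%. The members are bright, with a median control signal of 674, where the median signal of all tested probe sets was 76.3. The median standard error was 0.086 in risen and 0.089 in uncalled members, against 0.14 over all genes. Smaller changes can therefore pass in members, and the shares were not compared at equal signal. The risen genes were ERN1, EIF2AK3, HSPA13, DNAJB9, DNAJC3, MANF, P4HB, HERPUD1, SEL1L, EDEM3, SEC61A1 and SSR1, and the gene that fell was SEC61B. No member reached a log2 change of 1: the sizes of the 13 called changes ran from 0.30 to 0.69 on the log2 scale, where the median size over all called genes was 0.51. The median change of the 43 genes was 0.14, beside 0.02 for all genes, and 33 of the 43 had a value above 0 (53.1% of all genes did). For 18 members the whole DHT group was higher than the whole control group and for 3 it was lower (16.9% and 14.1% of all genes), and the groups overlapped for 22. In such bulk samples a larger share of cells making a transcript and more of it per cell cannot be told apart.

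The calls, and the signs of small changes, depend on the scale. Arrays scaled to equal medians gave 6 members higher and 1 lower. Over all 14269 genes 472 were then higher and 696 lower, against 994 and 855 on the deposited scale. Of these calls 40.4% were higher, against 53.8% on the deposited scale. The hybridisation spikes, bacterial and phage transcripts added before hybridisation, read 710 to 831 in signal in the controls and 1029 to 1243 with DHT. Scaling the arrays to them instead shifted all genes down, with a median of -0.45, and 8 of the 12 risen members then had a value below 0, while MANF, ERN1, DNAJB9 and EDEM3 stayed above it. Relative to that median, as with equal array medians, all 12 risen members stayed above 0, and 2 members passed as higher, MANF and ERN1, and 1 as lower, SEC61B. All values below are relative to the average transcript on the deposited scale.

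**Figure D1:**
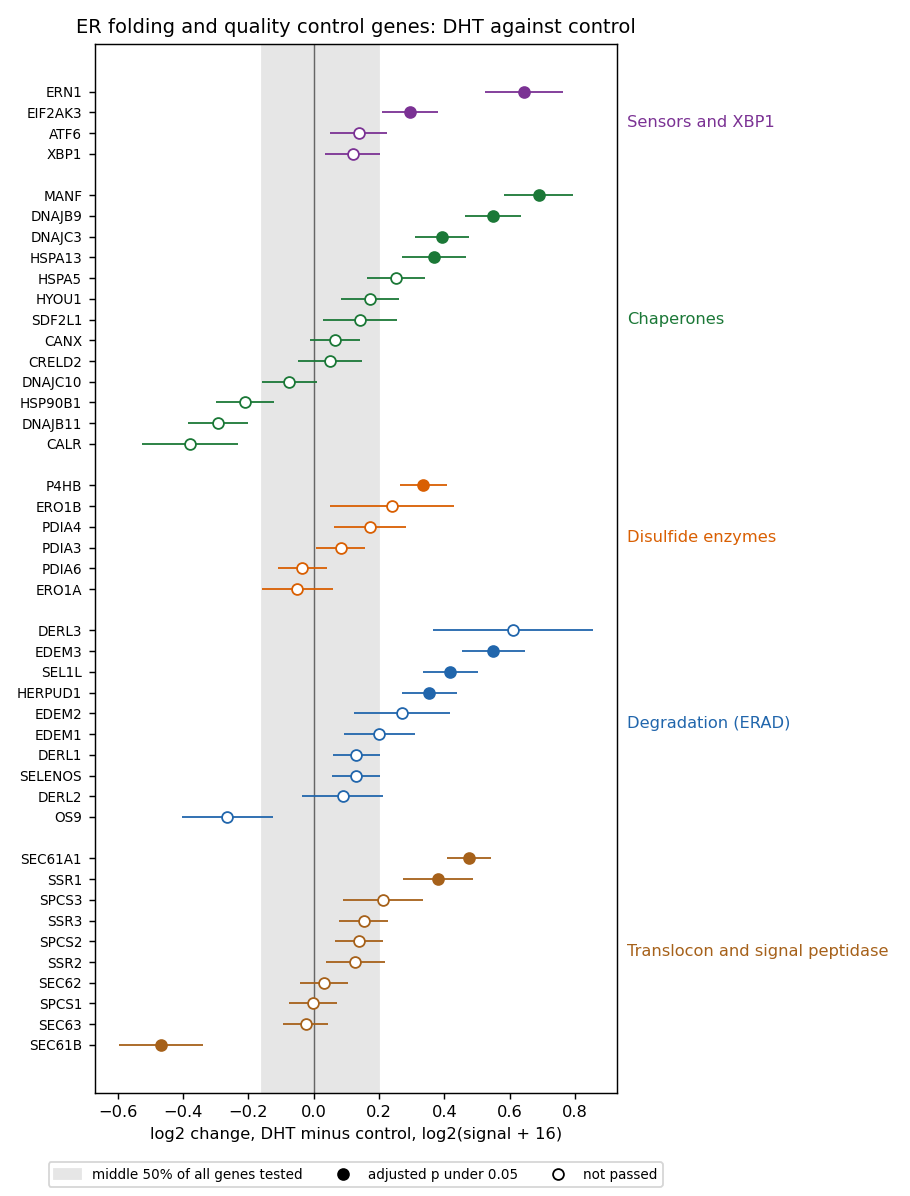
Log2 change (DHT minus control, log2(signal + 16), horizontal axis) of the 43 tested genes in 5 groups, with limma's standard error; filled points passed an adjusted p of 0.05 and the grey band holds the middle 50% of all 14269 genes. The risen genes, from 0.30 to 0.69 relative to the average transcript, are spread over all 5 groups, and SEC61B at -0.47 is the only filled point below 0.

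Chaperone genes are known for a shared promoter element, the ER stress response element (ERSE), bound by ATF6 and XBP1 together with NF-Y, so the promoters of the members were searched for it. RefSeq promoter windows of build GRCh38.p14 (250 bases before to 50 after a start) were found for 43 of the 47 genes, in 53 windows. The exact ERSE, CCAAT followed after 9 bases by CCACG, on either strand, was in 10 of these 53 windows, which belong to 8 genes, and in 27 of all 35116 windows (0.0769%). The 8 genes were HSPA5, HSP90B1, CALR, CANX, CRELD2, PDIA6, ERO1B and XBP1, and none of them was among the 12 that rose. Over all genes tested 6.97% rose, so that a count of 0 among 8 genes is near that share. Their log2 changes ran from -0.38 to 0.25 with a median of 0.06, although dimmer probe sets of HSP90B1 and PDIA6 did pass as higher. A related element, ERSE-II (ATTGG followed after 1 base by CCACG), was in HERPUD1, HYOU1 and SDF2L1, or 0.0541% of all windows, and HERPUD1 rose. Of the 28 tested members with a window and with neither element, 11 rose and 1 fell (6.97% and 5.99% of all genes did), with a median of 0.19. Their median control signal was 600, against 1029 for the 8 genes with the ERSE, and the difference between these sets was not tested. The core of the unfolded protein response element, TGACGTGG, was in DNAJC10, HYOU1, SEC62, SSR3 and TXNDC5 (0.729% of all windows). TXNDC5 was not tested, and the other 4 did not pass in the probe sets used. Another probe set of SEC62 passed as higher (0.40), and 2 others of SSR3 passed as lower (-0.95 and -0.72). The full palindrome of the androgen response element (AGAACA and TGTTCT with 3 bases between them) was in no member and in 1 of all windows, and the cyclic AMP response element TGACGTCA was in no member and in 1.85% of all windows. A match is a description of the letters, and members without one may carry other forms of these elements or lie outside these windows. As examples, stretches of 100 bases before the start are printed. They come from 4 genes with an ERSE, 1 with an ERSE-II and 1 with the TGACGTGG core in 1 of its 3 windows. The last 3 are risen genes with none of these. HSPA5 was added after its values were seen. The stretches run 5′ to 3′ on the gene's strand, positions count back from -1 just before the start, and capitals mark the element.
HSPA5 (chr9:125241351-125241450, minus strand, bases -107 to -8): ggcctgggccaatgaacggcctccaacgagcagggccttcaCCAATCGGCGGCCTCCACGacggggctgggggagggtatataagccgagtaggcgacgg
XBP1 (chr22:28800570-28800669, minus strand, bases -100 to -1): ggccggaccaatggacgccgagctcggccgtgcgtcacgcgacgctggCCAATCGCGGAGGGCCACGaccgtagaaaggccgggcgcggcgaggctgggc
CALR (chr19:12938359-12938458, plus strand, bases -250 to -151): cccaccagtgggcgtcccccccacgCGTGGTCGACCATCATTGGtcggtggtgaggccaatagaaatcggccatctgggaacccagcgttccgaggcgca
ERO1B (chr1:236282109-236282208, minus strand, bases -250 to -151): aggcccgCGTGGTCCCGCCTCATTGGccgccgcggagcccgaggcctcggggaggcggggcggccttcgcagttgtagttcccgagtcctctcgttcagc
HERPUD1 (chr16:56931980-56932079, plus strand, bases -162 to -63): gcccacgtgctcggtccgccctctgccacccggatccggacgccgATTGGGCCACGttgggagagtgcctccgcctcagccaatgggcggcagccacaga
SSR3 (chr3:156554126-156554225, minus strand, bases -100 to -1): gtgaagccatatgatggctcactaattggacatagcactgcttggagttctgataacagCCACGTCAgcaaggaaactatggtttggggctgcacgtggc
MANF (chr3:51385191-51385290, plus strand, bases -100 to -1): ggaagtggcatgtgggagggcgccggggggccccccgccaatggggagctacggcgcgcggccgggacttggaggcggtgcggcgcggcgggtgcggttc
DNAJB9 (chr7:108569774-108569873, plus strand, bases -100 to -1): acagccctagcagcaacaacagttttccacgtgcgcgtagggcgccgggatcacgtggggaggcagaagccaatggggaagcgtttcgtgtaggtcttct
ERN1 (chr17:64130145-64130244, minus strand, bases -100 to -1): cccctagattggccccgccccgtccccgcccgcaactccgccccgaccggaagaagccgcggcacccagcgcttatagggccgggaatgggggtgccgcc

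Among the sensors, the clearest change was in ERN1, the kinase and endoribonuclease that splices XBP1 mRNA. Its signal was 203, 208 and 227 on the control arrays and 311, 305 and 418 on the DHT arrays. All DHT arrays were higher, with DHT replicate 3 the highest, and the log2 change was 0.64 ± 0.12 (SE; limma adjusted p = 0.00501). EIF2AK3, the kinase that halts translation initiation, had control signals of 284, 285 and 315 and DHT signals of 380, 373 and 344. These groups did not overlap either, and its change of 0.30 ± 0.09 was the smallest of those called (limma adjusted p = 0.0437). It did not pass when any single array was left out (adjusted p = 0.053 to 0.123). The groups overlapped for XBP1, the transcription factor made active by ERN1, at 1020, 998 and 987 against 960, 1176 and 1144. Its change of 0.12 had a 95% interval of -0.07 to 0.31 and did not pass (limma adjusted p = 0.418). Splicing of XBP1 was not analysed here. ATF6, a membrane-bound transcription factor freed by cleavage in the Golgi, read 270, 301 and 291 against 318, 301 and 333 and had 0.14 (-0.05 to 0.33). Its lowest DHT array was barely above its highest control array. Of the 4 genes, 2 passed as higher (50%, against 6.97% of all genes), and the median change was 0.22.

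Of the 13 chaperones, 4 rose and 0 fell (30.8% and 0%, against 6.97% and 5.99% of all genes), and the median change was 0.14. At an unadjusted p under 0.05 limma gave 5 as higher and 3 as lower. The share of all genes at that limit was not taken. MANF, a small ER protein that is also secreted and protects stressed cells, read 685, 579 and 535 in the controls and 858, 1056 and 1012 with DHT. Its lowest DHT signal was above its highest control signal, and its change of 0.69 ± 0.11 was the largest of the 43 (limma adjusted p = 0.00154). DNAJB9, a J-domain cochaperone of HSPA5, read 340, 384 and 335 against 551, 494 and 525, a rise of 0.55 ± 0.09. DNAJC3, the J-domain protein also known as an inhibitor of EIF2AK3, read 311, 305 and 341 against 435, 431 and 403, a rise of 0.39 ± 0.08. In both the groups stood well apart. HSPA13, an ATPase of the HSP70 family in microsomes, read 180, 213 and 183 against 247, 249 and 259, a rise of 0.37 ± 0.10 (limma adjusted p = 0.0283) that did not pass without control replicate 1, control replicate 3 or any one DHT array (0.0615 to 0.0941).

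The other 9 chaperones did not pass in the probe sets used. HSPA5, the HSP70 chaperone BiP, was among the brightest members at 3548, 3212 and 2929 against 3540, 4105 and 3898. DHT replicate 1 lay within the controls, and the change was 0.25 with a 95% interval of 0.06 to 0.45 (limma adjusted p = 0.0881). HSP90B1, the HSP90 of the ER, had -0.21 in the _x_at probe set read here, HYOU1, an exchange factor of HSPA5, had 0.17, and SDF2L1, a partner of DNAJB11, had 0.14. The lectin chaperone CANX had 0.06 (-0.10 to 0.23) and CRELD2 0.05 (-0.17 to 0.27). CALR, the soluble lectin chaperone, read 983, 978 and 1098 in the controls and 995, 805 and 591 with DHT. Its DHT arrays were widely spread, and its change of -0.38 ± 0.15 did not pass (limma adjusted p = 0.123; 0.0218 at -0.55 without DHT replicate 1). The 2 other CALR probe sets, of the _x_at type and brighter at mean control signals of 2578 and 2533, had only -0.02 and -0.06. DNAJB11, a cochaperone that delivers substrates to HSPA5, read 726, 570 and 635 against 540, 517 and 503. All its DHT arrays were lower, but its change of -0.29 ± 0.09 stayed short of the threshold (limma adjusted p = 0.0602; 0.029 at -0.38 without control replicate 2, 0.044 with the lowest 60% of probe sets removed and 0.0482 after quantile normalisation). DNAJC10, a J-domain reductase, had -0.07.

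Among the 6 tested disulfide enzymes only P4HB, the classical protein disulfide isomerase and the brightest member of all, rose. It read 4071, 4390 and 4039 in the controls and 5355, 5275 and 5149 with DHT. The groups were far apart for their spread, with a change of 0.34 ± 0.07 (limma adjusted p = 0.00999). This rise was limited to the brightest of its 3 probe sets, as described further on, and the mean over them was -0.10. The other isomerases PDIA3 (0.08), PDIA4 (0.17) and PDIA6 (-0.04) and the oxidases ERO1A (-0.05) and ERO1B (0.24), which pass electrons from the isomerases to oxygen, did not pass in the probe sets used. ERO1B read 85.2, 121 and 88.1 against 93.0, 106 and 163, so that only DHT replicate 3 lay above the controls. The share of the group that rose was 16.7%, against 6.97% of all genes, and its median was 0.13.

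Degradation genes had the highest group median, 0.24, with 3 of 10 risen and none fallen (4 higher and 0 lower at an unadjusted p under 0.05 in limma). EDEM3, a mannosidase-like protein that marks misfolded glycoproteins, read 423, 483 and 485 in the controls and 739, 725 and 599 with DHT, a rise of 0.55 ± 0.10. SEL1L, which holds the ubiquitin ligase of the degradation complex, read 725, 803 and 842 against 1009, 1023 and 1151, a rise of 0.42 ± 0.08. No DHT array of either gene fell within the control range. HERPUD1, a ubiquitin-like membrane protein of the same complex, read 1530, 1315 and 1282 against 1664, 1834 and 1778, a rise of 0.35 ± 0.08 (limma adjusted p = 0.017). It did not pass without control replicate 2, control replicate 3, DHT replicate 2 or DHT replicate 3 (0.0503 to 0.0687). The other mannosidase-like members EDEM1 (0.20) and EDEM2 (0.27), the derlins DERL1 (0.13) and DERL2 (0.09), which take part in moving substrates across the membrane, and SELENOS (0.13), which recruits the ATPase VCP, did not pass. OS9, a lectin that presents glycoproteins for degradation, had -0.26 and did not pass. DERL3 was the dimmest member, at 22.9, 24.2 and 54.1 against 49.6, 50.6 and 73.2. Control replicate 3 lay among the DHT arrays, and the change of 0.61 ± 0.25 did not pass (limma adjusted p = 0.137, and 0.0357 at 0.88 without control replicate 3). Another DERL3 probe set, of the _x_at type and brighter in the controls (56.6 against 33.7 in mean signal), had -0.06.

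The translocon genes split, with 2 of 10 risen and 1 fallen (20% and 10%, against 6.97% and 5.99% of all genes) and a median of 0.13. SEC61A1, the pore-forming subunit, read 1154, 1154 and 1176 in the controls and 1561, 1657 and 1645 with DHT. It had the smallest adjusted p of the 43 genes, with a rise of 0.48 ± 0.07 (limma adjusted p = 0.000928). SSR1, a subunit of the translocon-associated TRAP complex, read 1910, 1490 and 1651 against 1988, 2098 and 2501, a rise of 0.38 ± 0.11. It did not pass without control replicate 2, control replicate 3, DHT replicate 2 or DHT replicate 3 (limma adjusted p = 0.0716 to 0.138). SEC61B, a small tail-anchored subunit of the same channel as SEC61A1, read 2924, 2269 and 2316 in the controls and 1535, 2185 and 1718 with DHT. The highest DHT array was just below the lowest control, and the change of -0.47 ± 0.13 did not pass without control replicate 1, control replicate 3, DHT replicate 1 or DHT replicate 3 (limma adjusted p = 0.0582 to 0.128). The accessory subunits SEC62 (0.03; -0.13 to 0.19) and SEC63 (-0.03; -0.18 to 0.13), the TRAP subunits SSR2 (0.13) and SSR3 (0.15) and the signal peptidase subunits SPCS1 (-0.0018), SPCS2 (0.14) and SPCS3 (0.21) did not pass in the probe sets used.

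**Figure D2:**
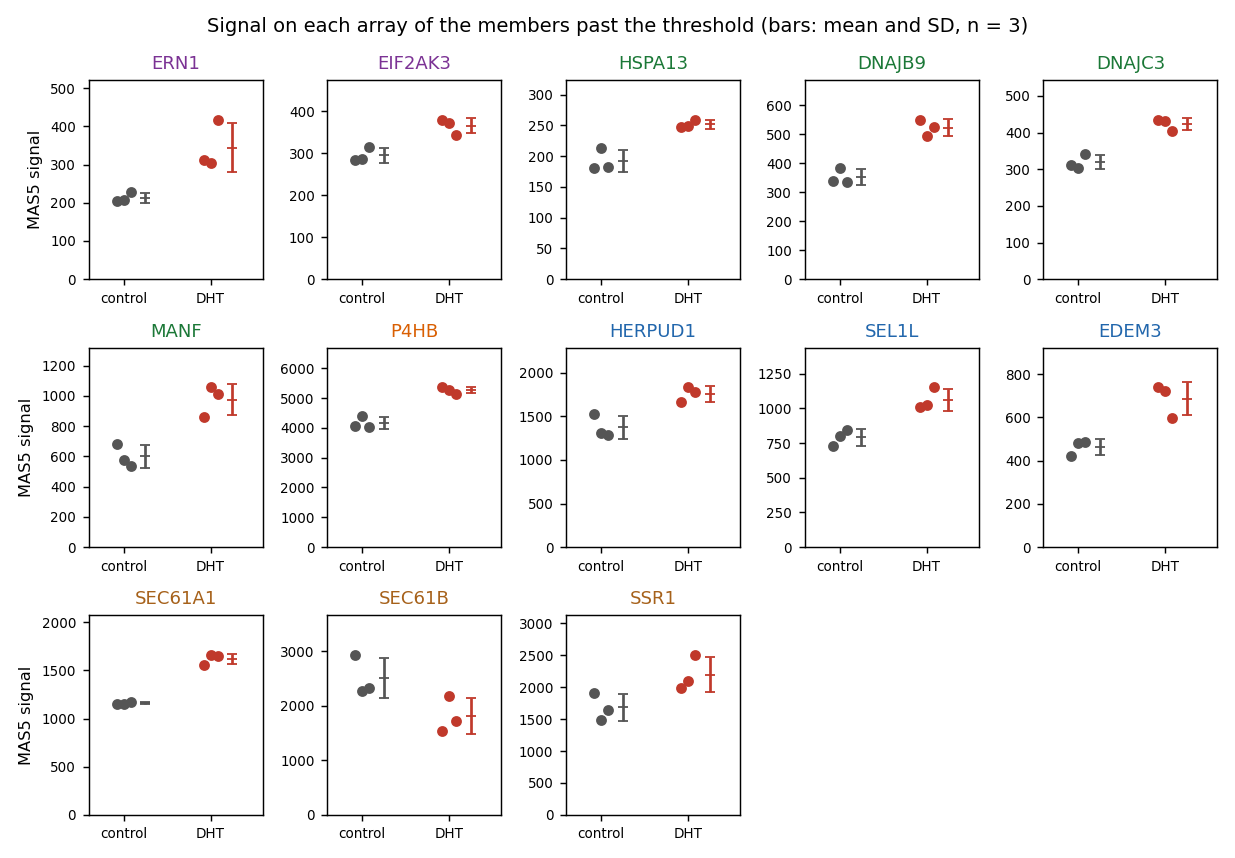
Signal (MAS5, linear axis from 0) on each of the 3 control and 3 DHT arrays for the 13 genes past the threshold, with mean and SD beside the points. The groups do not overlap in any panel; SEC61A1 has 1154 to 1176 against 1561 to 1657, whereas the SEC61B groups nearly touch at 2269 and 2185.

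The reading of several members turned on the probe set. The 43 genes have 109 tested probe sets, of which 21 passed as higher (19.3%, against 5.09% of all probe sets) and 5 as lower (4.59%, against 5.25%), with p adjusted over all probe sets. Of the 30 genes that did not pass, 7 had another probe set that did. PDIA4 (0.53), PDIA6 (0.50) and SEC62 (0.40) had another that was higher, and SPCS3 had 2, at 0.67 and 0.52. HSP90B1 had 0.82 in its dimmer _x_at probe set (275 in the controls and 496 with DHT in mean signal) and -0.21 in the one read here. With probe sets averaged per gene, PDIA4 (0.35, limma adjusted p = 0.0163) and SPCS3 (0.47, 0.00484) passed as higher.

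Other genes had probe sets in opposite directions. P4HB had 0.34 in the brightest probe set and -0.37 (limma adjusted p = 0.0196 over probe sets) and -0.28 in the other two. SEC63 had -0.03 in the probe set used and 0.42 and -0.33 in others, both of which passed. SSR3, which encodes the gamma subunit of TRAP, had 0.15 in its brightest probe set at a mean control signal of 974.6, but -0.72 at 304 and -0.95 at 131 in 2 others (adjusted p = 0.000834 each), and averaging all of them gave -0.39 (adjusted p = 0.0159). Of the 10 called genes with other tested probe sets, 3 had another that passed in the same direction: DNAJB9 (0.52), DNAJC3 (0.75) and EDEM3 (0.58). In P4HB, SEL1L, SEC61A1 and SEC61B at least 1 other probe set had the opposite sign. For SEC61A1 this was an _x_at probe set at -0.04. With the mean over probe sets, ERN1 (0.36, adjusted p = 0.0609), SEL1L (0.24, 0.204), SEC61A1 (0.22, 0.065), SSR1 (0.19, 0.144) and SEC61B (-0.22, 0.244) did not pass.

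**Figure D3:**
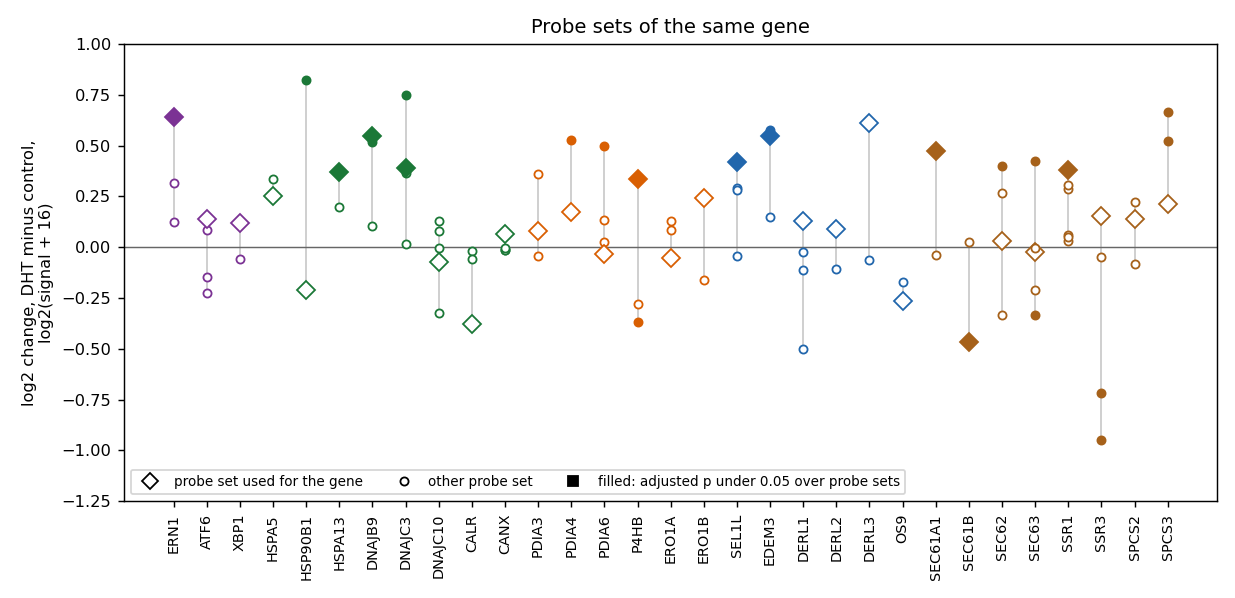
Log2 change (DHT minus control, log2(signal + 16), vertical axis) of every tested probe set of the 31 members that have more than 1; diamonds are the probe sets used for the gene and filled symbols passed an adjusted p of 0.05 over all probe sets. SSR3 runs from 0.15 to -0.95 and P4HB from 0.34 to -0.37, whereas the DNAJC3 and EDEM3 probe sets all lie above 0.

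Other genes of the pathway, 104 in 4 lists, had 100 tested, of which 16 rose and 7 fell (16% and 7%, against 6.97% and 5.99% of all genes), with a median of 0.07. In the list of signalling genes 6 of 19 rose and 1 fell (31.6% and 5.26%). Those that rose included ATF3 (0.60), DDIT3 (0.48) and TRIB3 (0.53), which act downstream of EIF2AK3, the transcription factor CREB3L2 (0.32) and WFS1 (0.30), an ER membrane protein. Others of the EIF2AK3 arm did not pass: ATF4 had -0.11, PPP1R15A -0.093, PPP1R15B 0.49, and CHAC1, with all DHT arrays below the controls, -0.34. With probe sets averaged per gene, TRIB3 had 0.11 (limma adjusted p = 0.586), ATF3 0.24 (0.435) and CREB3L2 -0.17 (0.403), and none passed. DDIT3 read 158, 167 and 129 against 227, 210 and 213. CREB3L2 and WFS1 did not pass when any single array was left out (limma adjusted p = 0.0563 to 0.127 and 0.0743 to 0.11), ATF3 without control replicate 3, DHT replicate 2 or DHT replicate 3 (0.0625 to 0.0723), or DDIT3 without control replicate 3 or DHT replicate 1 (0.058 to 0.0596). The one that fell was ERN2, the gut-type relative of ERN1, from a control signal of 25.5 to 32.5 to a DHT signal of 6.14 to 13.0, below the limit of 17.3 set for a probe set's mean. It passed that limit through the control group alone, so its fitted change of -0.82 has no firm size. ERN2 had a value above 0 in another probe set (0.12 to 0.43), which was read when any one control array was left out, and did not pass without any one DHT array either (0.0573 to 0.106).

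Among 26 genes of targeting, translocation and N-glycosylation 4 rose and 1 fell (15.4% and 3.85%, against 6.97% and 5.99% of all genes). STT3A, a catalytic subunit of the oligosaccharyltransferases, which attach N-glycans in the ER, read 287, 223 and 269 in the controls and 452, 460 and 447 with DHT, a rise of 0.77 ± 0.10 (limma adjusted p = 0.000556). The oligosaccharyltransferase subunits RPN2 (0.44) and MAGT1 (0.47; 0.28 with probe sets averaged) rose too. Other subunits in the list did not pass: TUSC3 had 0.33, RPN1 0.21, STT3B 0.13, OSTC 0.11, TMEM258 -0.020, KRTCAP2 -0.038, DAD1 -0.11 and DDOST, with all DHT arrays below the controls, -0.18. The remaining called genes were TRAM1 (0.23), which did not pass when any single array was left out (adjusted p = 0.066 to 0.138), and SRP54 of the signal recognition particle (-0.35). Among 34 folding and glycan-trimming genes 4 rose and 2 fell, 11.8% and 5.88%, not far from the shares of all genes. ERP44 (0.40) and DNAJB14 (0.42) rose, as did PRDX4 (0.32) and TXNDC12 (0.26), which did not pass without 5 and 6 of the single arrays in turn (0.0827 to 0.142 and 0.054 to 0.147). KDELR1, a receptor that returns escaped chaperones to the ER, fell from 1518, 1308 and 1382 to 987, 1036 and 898 (-0.52 ± 0.08), and the glucosidase subunit PRKCSH fell by 0.35, though not without control replicate 1 (0.0519). With probe sets averaged, ERP44 (0.17, limma adjusted p = 0.246) and PRKCSH (-0.17, 0.145) did not pass. PRDX4, which has 1 probe set, kept its 0.32 but did not pass in that fit either (limma adjusted p = 0.0519).

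Among 21 other degradation genes 2 rose and 3 fell (9.52% and 14.3%, against 6.97% and 5.99% of all genes), with a median of 0.014. These counts are small, and their difference from the members of that group was not tested. VCP, the ATPase that pulls substrates out of the membrane, fell from 1466, 1413 and 1488 to 1091, 1027 and 904 (-0.53 ± 0.08; limma adjusted p = 0.00158). UBAC2, a membrane protein of the degradation machinery, fell by 0.53 and the chaperone BAG6 by 0.36, the latter not without DHT replicate 3 (adjusted p = 0.0537) nor with probe sets averaged (-0.15, 0.167). FAF2, which recruits VCP to the ER, rose by 0.48, and SELENOK rose by 0.34 but did not pass without control replicate 2, control replicate 3, DHT replicate 2 or DHT replicate 3 (0.0757 to 0.129). The listed genes without a value were not analysed here or, in the case of RNF5, lay below the limit on dim signals.

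**Figure D4:**
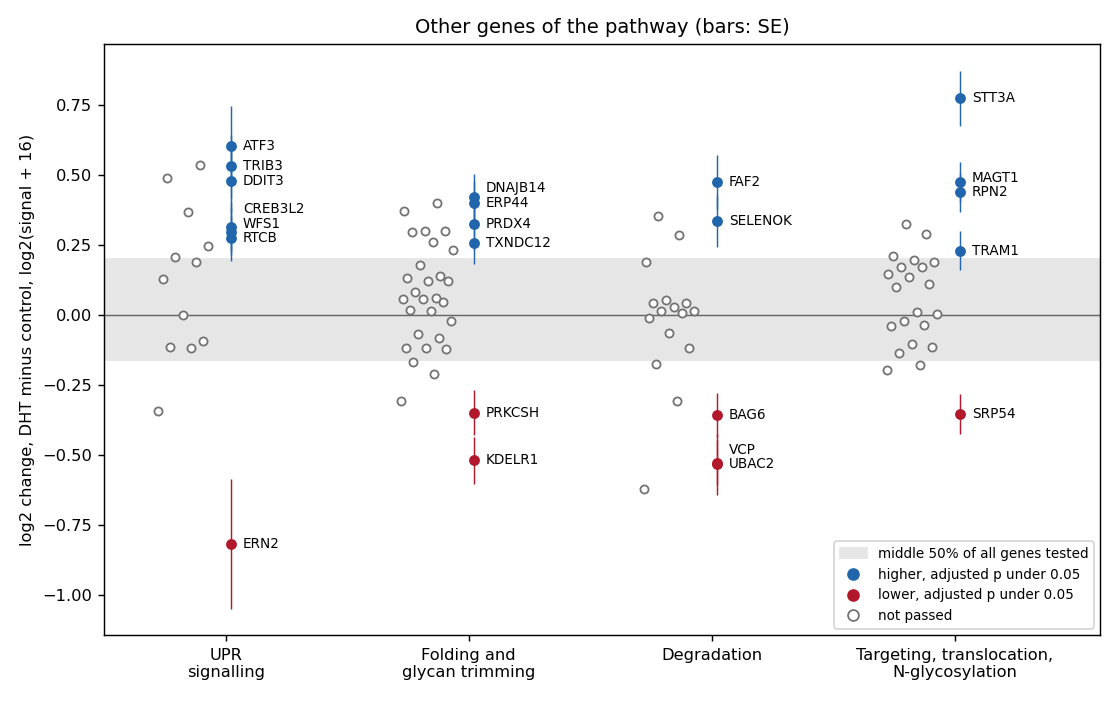
Log2 change (DHT minus control, log2(signal + 16), vertical axis) of 100 other pathway genes in 4 lists, with limma's standard error for those past an adjusted p of 0.05 and the middle 50% of all genes in grey. STT3A at 0.77 is the highest called gene; ERN2, plotted at -0.82, lies below the limit on dim signals with DHT, and VCP and KDELR1 lie at -0.53 and -0.52.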

How the data were processed

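RNA of 6 cultures was hybridised to 1-colour arrays. The values the authors deposited are linear signal intensity, for which the submitters' processing notes name MAS5 without a version. MAS5 subtracts a background estimate, so that dim signals are noisy. Detection calls were not used here.

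Control probe sets (62 of 54675) were left out, and the lowest 40% of the rest by mean log2(signal + 16) were removed, leaving 32768. Probe sets took gene names from the platform annotation where it names 1 gene (41091 probe sets, 41037 matched by gene identifier to assembly GRCh38.p14). limma 3.58.1 in R 4.3.3 (lmFit, and eBayes with an intensity trend) was fitted to log2(signal + 16) over all tested probe sets, a scale that understates changes of dim genes. One probe set then stood for each gene, and p was adjusted (Benjamini-Hochberg) over 14269 genes. The script was tested on simulated data. Intervals are 95% limma intervals. The labels call the arrays biological replicates without naming separate experiments, so p-values measure the spread between these 3 cultures a group, whose number limits the precision.

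The members and lists, and the tests, were chosen with earlier results of these data known. Named were the sensors, every called member, the 2 largest uncalled changes in each other group, and up to 6 called genes in each other list; HSPA5 and the remaining uncalled members were named after their values were seen. Alternatives were pseudocounts of 1 and 64, no filter or a 60% filter, quantile, median and spike scaling, the replicate number as a block, no trend, robust moderation, averaging the probe sets of each gene, and omitting each array in turn. Promoters are RefSeq's (GRCh38.p14). Python 3.11.15, scipy 1.17.1 and pandas 2.3.3 were used.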

Additional observations from a re-analysis of the deposited data

How the results depend on the processing

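Of the 13 called members, 1 (MANF) passed in the same direction under all 17 alternatives, and DNAJB9, DNAJC3, ERN1, P4HB, SEL1L, EDEM3 and SEC61A1 passed also whichever array was left out. P4HB was the called member that turned direction, at -0.10 with the mean of its probe sets, where the uncalled ATF6 (-0.037) and SSR3 (-0.39) and the other pathway gene CREB3L2 (-0.17) turned too. ERN2 turned to 0.24 with the lowest 60% of probe sets removed, and to 0.43, 0.16 and 0.12 without control replicate 1, 2 and 3, where another probe set was read; leaving out 1 array gave -0.90 to 0.43.

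Over all 14269 genes 994 were higher and 855 lower in the main fit, and 388 and 293 without the intensity trend. Equal array medians gave 472 and 696, averaged probe sets 746 and 732, quantile normalisation 991 and 872, and the replicate block 901 and 825. No filter gave 806 and 678 of 19775 genes, and the 60% limit 1039 and 937 of 10648. Without the intensity trend 3 members passed, all higher, 2 chaperones and 1 translocon gene, and 0 sensors, 0 disulfide and 0 degradation genes, with 0 members lower. Of the other pathway genes 2 were then higher and 3 lower. With equal array medians 7 members passed, 6 of them higher: 1 sensor, 2 chaperones, 0 disulfide genes, 2 degradation genes and 1 translocon gene; the median was 0.16 for sensors and 0.070 for the translocon, and 5 other pathway genes were higher. With spike scaling relative to the median of all genes 3 passed, 2 higher (1 sensor, 1 chaperone, and 0 disulfide, degradation and translocon genes) and 1 lower; the medians were 0.14 for sensors, 0.031 for disulfide enzymes and 0.034 for the translocon, and 2 other pathway genes were higher and 4 lower. That scaling also adds the spread of the spikes between arrays, and its calls over all genes relative to that median were not counted. With averaged probe sets 1 sensor (median 0.16) and 1 translocon gene were higher. With no filter 0 members were lower and 1 translocon gene higher. A limit at 60% and quantile normalisation each gave 2 members lower, 1 of them a chaperone. Same-numbered arrays of the groups did not deviate together (r = -0.030 to -0.00092 over probe sets), so the numbers pair no samples; with the replicate number as a block 12 members passed, with 1 sensor, since EIF2AK3 had an adjusted p of 0.0714 (limma).

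Leaving out 1 array gave 626 to 785 of all genes as higher and 515 to 664 as lower. Of the members 8 to 11 passed, 8 to 10 higher and 0 to 2 lower. By group this was 1 sensor higher, 3 to 4 chaperones higher and 0 to 1 lower, 2 to 3 degradation genes higher, 1 to 2 translocon genes higher and 0 to 1 lower, with medians of 0.071 to 0.17 for the translocon, 0.057 to 0.20 for disulfide enzymes and 0.085 to 0.21 for chaperones. Of the other pathway genes 7 to 13 were higher and 5 to 8 lower. Dim members such as DERL3 have few units of signal over background and a standard error of 0.25, against a median of 0.14 over all genes.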
